A study of Mus musculus with 20 samples.

Results

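A group of 10 lens genes was followed through bulk RNA-Seq of whole mouse retinas: the alpha crystallins Cryaa and Cryab, the beta crystallins Cryba1, Cryba2, Cryba4, Crybb1, Crybb2 and Crybb3, the fibre cell water channel Mip and the beaded filament protein Bfsp1. They were taken by gene symbol from the deposited tables and are 10 of 19716 genes listed in either experiment. The question was which of these genes moved with lens tissue carried over into the retina samples, and which also had a level of their own in retinas with little lens RNA.

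Crystallins are the soluble structural proteins of the lens, packed at high concentration in fibre cells to give the lens its clarity and refractive power. The alpha crystallins are small heat shock proteins that hold unfolding proteins in solution. Cryab is in addition a stress protein of glia, heart and skeletal muscle. Beta and gamma crystallins share one protein fold, and some beta crystallins are also known from retina. Mip, a water channel of the aquaporin family, is the main membrane protein of lens fibre cells, and Bfsp1, or filensin, forms with Bfsp2 the beaded filaments that are found only in the lens.

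Libraries fell into 4 groups of 5. In the first experiment, Atf6+/+ (WT OIR) and Atf6-/- (Atf6 KO OIR) pups of both sexes spent postnatal day (P) 7 to P12 in 75% oxygen, returned to room air and gave retinas at P17, when vessel growth in this oxygen-induced retinopathy (OIR) peaks. The Atf6-/- mice lack the unfolded protein response regulator in the whole body, through a premature stop codon. The study's methods place wild-type and Atf6-/- mice alike on a C57BL/6J background and name both sexes at P17 and P30. In the second, wild-type mice at P30 received 1 µL in both eyes of saline with solvent (the group labelled PBS) or of 10 µM Ceapin-A7 in such saline, a small molecule that blocks ATF6, and retinas were taken 24 h later. The labels name the solvent as dimethyl sulfide and the study's methods as dimethyl sulfoxide, at a lower share with Ceapin-A7 than in the control. The labels state that cornea and lens were removed before the retina was harvested. Values are FPKM, fragments scaled to transcript length and to the fragments of the library, so levels of different genes can be compared within a library. Each group was deposited as a table of its own, and the 2 experiments differ in age, oxygen history and injection, so their levels stand side by side with no test between them.

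Retinal identity and lens content were read from marker genes. The 11 rod photoreceptor genes summed to between 17200 and 26384 FPKM in the 20 libraries. Corneal epithelium genes summed to between 0.30 and 3.28 FPKM in 19 libraries and to 14.2 FPKM in PBS replicate 1, where the corneal enzyme Aldh3a1 alone was at 12.9 FPKM. The lens fibre content was read from 7 gamma crystallins that are no members of the group (Cryga to Crygf and Crygs, of which Cryga to Crygf are closely related copies whose single values are uncertain). Their sum was 0.31 to 1.08 FPKM in the 5 Atf6-/- OIR libraries and 1.34 to 558.5 FPKM in the 5 Atf6+/+ OIR libraries, of which replicates 2 and 5 (104.0 and 558.5 FPKM) stood apart. At P30 it was 6.31 to 1514 FPKM in the PBS libraries and 75.6 to 2329 FPKM in the Ceapin-A7 libraries. In the Atf6-/- OIR libraries Cryga was 0.21 to 1.08 FPKM, while Crygb, Crygc, Cryge and Crygf were 0 in all 5. There the sum thus mainly followed Cryga and is a poor reading of lens content. The 10 genes took 0.0164% to 2.40% of a library's summed FPKM. Depth read from the steps between low values was taken relative to replicate 2 of the control group of the same experiment. It was 1 in every library but Ceapin-A7 replicate 3, at 0.708, and was not compared between the experiments. Values rounded to 2 decimals are often equal in 2 libraries, which gives a ratio of exactly 1. A value of 1 here thus does not show equal depth. Atf6 itself was at 14.6 to 16.1 FPKM in Atf6+/+ OIR and 13.6 to 16.8 FPKM in Atf6-/- OIR libraries, so this transcript level does not check the genotype labels.

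Promoter sequences were available for 9 of the 10 genes, from RefSeq on GRCm38.p6, as windows of 300 bases around the start of the gene. The build differs from the GRCm39 of the expression tables, so these coordinates are not those of the alignment. Large Maf factors drive crystallin genes in fibre cells through an element with the letters TGCTGAC, which were searched on both strands together with the shorter TGCTGA that they contain and with the TATA letters TATAAA. The longer element TGCTGAC was in 4 of the 9 windows (Cryaa, Cryba1, Cryba4 and Crybb1) and in 4.67% of all 32851 promoters of the table. TGCTGA was in 8 of 9 (all but Crybb2) and in 19.5% of all. TATAAA was in 4 of 9 (Cryba1, Cryba2, Crybb1 and Mip) and in 13.6% of all. A match is a run of letters and not a measured binding site. The windows of Cryaa (chr17:31677681-31677980, plus strand), Cryba4 (chr5:112252469-112252768, minus strand), Crybb1 (chr5:112255570-112255869, plus strand) and Crybb3 (chr5:113081535-113081834, minus strand) are shown 5′ to 3′, the first for a gene at 0.23 FPKM or below in all 5 Atf6-/- OIR libraries and the others for beta crystallins that kept a level in every library. Capitals mark TGCTGA or TGCTGAC and the same letters read on the other strand.
Cryaa: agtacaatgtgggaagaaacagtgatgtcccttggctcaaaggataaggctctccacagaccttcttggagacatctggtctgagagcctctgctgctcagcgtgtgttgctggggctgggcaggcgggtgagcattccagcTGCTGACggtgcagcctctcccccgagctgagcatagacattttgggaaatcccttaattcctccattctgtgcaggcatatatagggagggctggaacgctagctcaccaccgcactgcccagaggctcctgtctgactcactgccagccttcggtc
Cryba4: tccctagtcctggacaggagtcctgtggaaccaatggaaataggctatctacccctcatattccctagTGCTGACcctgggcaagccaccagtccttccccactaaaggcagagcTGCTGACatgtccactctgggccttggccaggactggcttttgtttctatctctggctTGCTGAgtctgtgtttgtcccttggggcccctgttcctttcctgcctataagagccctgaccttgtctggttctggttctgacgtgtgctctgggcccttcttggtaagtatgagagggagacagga
Crybb1: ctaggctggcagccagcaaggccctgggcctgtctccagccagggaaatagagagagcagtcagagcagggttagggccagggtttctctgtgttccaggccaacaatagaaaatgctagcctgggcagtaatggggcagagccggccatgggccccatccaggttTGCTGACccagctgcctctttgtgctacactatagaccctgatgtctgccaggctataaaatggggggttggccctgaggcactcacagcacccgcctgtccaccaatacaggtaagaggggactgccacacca
Crybb3: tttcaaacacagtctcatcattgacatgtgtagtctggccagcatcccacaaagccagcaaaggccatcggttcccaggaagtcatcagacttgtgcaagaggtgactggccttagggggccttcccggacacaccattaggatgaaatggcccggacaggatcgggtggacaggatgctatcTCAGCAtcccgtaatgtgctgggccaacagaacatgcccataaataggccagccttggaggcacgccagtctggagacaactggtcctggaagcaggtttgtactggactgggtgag

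In the Cryaa window the element began 108 bases before the start, and in the Crybb1 window 84 bases before it. The Cryba4 window held TGCTGAC at 182 and 135 bases and TGCTGA at 77 bases before the start. In the Crybb3 window only the shorter letters were found, on the opposite strand, 67 bases before the start. Cryba4 and Crybb1 lie next to each other and point away from each other, and in RefSeq the span of Cryba4 runs into that of Crybb1 on the other strand. The libraries were stranded, but whether counting used strand is not given in the sources used here, so reads of these 2 genes may not be fully told apart.

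Cryaa, an abundant chaperone of the lens, ranged from 0 to 3973 FPKM. Replicates 1 to 5 of the Atf6+/+ OIR group had 2.71, 34.5, 0.18, 5.88 and 129.9 FPKM, and those of the Atf6-/- OIR group 0.23, 0.09, 0, 0.10 and 0 FPKM. In the PBS libraries they were 2422, 644.5, 2.92, 710.7 and 11.3 FPKM, and in the Ceapin-A7 libraries 3973, 29.0, 260.8, 28.65 and 1994 FPKM. The Atf6+/+ OIR libraries exceeded the Atf6-/- OIR libraries except that replicate 3 (0.18) lay below the highest Atf6-/- library (0.23), and the PBS and Ceapin-A7 libraries overlapped over most of their range. Within the Atf6+/+ OIR, PBS and Ceapin-A7 groups the order of the libraries by Cryaa was that by summed gamma crystallins, apart from 1 pair of neighbours in each group.

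**Figure D1:**
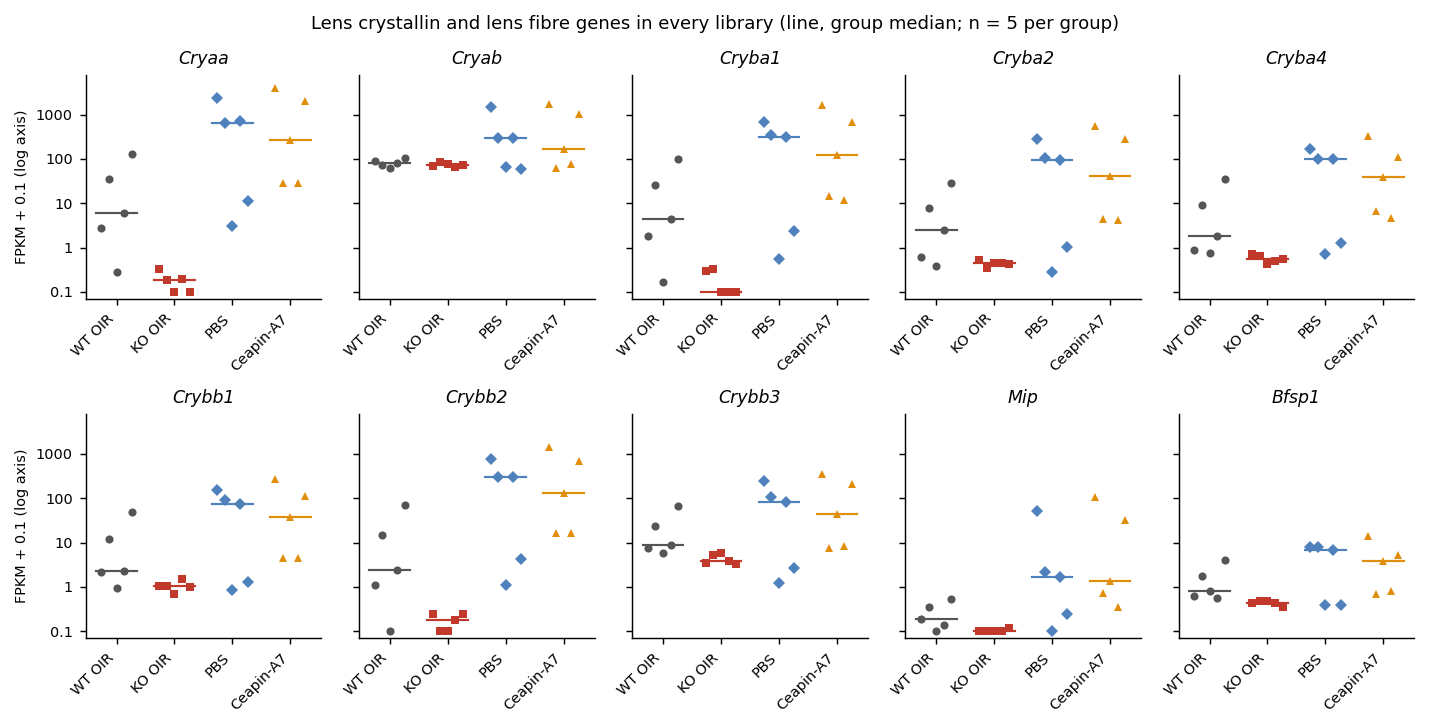
FPKM plus 0.1 of the 10 lens genes in each of 20 libraries (log axis, points in replicate order within a group, line at the group median, 5 libraries per group). Cryab is the only gene that sits at or above 58.8 FPKM in every library, and Cryaa, Cryba1, Crybb2 and Mip fall to 0 or near it in the Atf6-/- OIR libraries.

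The other chaperone behaved differently. For Cryab, replicates 1 to 5 of the Atf6+/+ OIR group had 89.8, 71.6, 63.0, 80.3 and 104.8 FPKM, and those of the Atf6-/- OIR group 70.5, 84.9, 74.9, 65.7 and 71.1 FPKM. At P30 it was at 1459, 291.1, 64.2, 301.6 and 58.8 FPKM in the PBS and 1718, 63.4, 169.9, 75.2 and 1027 FPKM in the Ceapin-A7 libraries. The 10 OIR libraries thus stayed within a 1.66-fold range while Cryaa in them ran from 0 to 129.9 FPKM, whereas the 10 P30 libraries spread over a 29.2-fold range. In the 8 OIR libraries whose gamma crystallins summed to under 20 FPKM, a limit placed in a wide gap after the values were seen, Cryab was 63.0 to 89.8 FPKM with a coefficient of variation of 12.5%. In the 2 P30 libraries under that limit (PBS replicates 3 and 5) it was 64.2 and 58.8 FPKM. The level in libraries with little lens RNA thus lay in a similar range at both ages, with 8 and 2 libraries behind it and no test between the experiments.

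Cryba1 and Crybb2, structural beta crystallins of the fibre cells, went down to 0 with Cryaa. Cryba1 was 1.74, 25.95, 0.07, 4.21 and 97.9 FPKM in the Atf6+/+ OIR libraries and 0.19, 0.22, 0, 0 and 0 FPKM in the Atf6-/- OIR libraries. Crybb2 was 1.01, 14.9, 0, 2.34 and 70.0 FPKM against 0.14, 0, 0, 0.08 and 0.14 FPKM. Both had their highest OIR value in Atf6+/+ replicate 5 and the next in replicate 2, as Cryaa did. Within a library Cryba1 stood at 64.2%, 75.3%, 71.6% and 75.4% of Cryaa in Atf6+/+ OIR replicates 1, 2, 4 and 5, and Crybb2 at 37.3%, 43.3%, 39.8% and 53.9% in the same libraries, while Cryaa went from 2.71 to 129.9 FPKM. In Atf6+/+ replicate 3, with 0.18 FPKM of Cryaa, the proportions were 38.9% and 0%. At P30 Crybb2 was 31.0% to 56.6% of Cryaa in the 10 libraries. Cryba1 was 28.7% to 53.4% in 8 of them and 15.8% and 19.6% in PBS replicates 3 and 5, so its proportion was lower where lens RNA was lowest. At P30 Cryba1 ranged from 0.46 FPKM (PBS replicate 3) to 1640 FPKM (Ceapin-A7 replicate 1) and Crybb2 from 1.00 to 1412 FPKM in the same libraries.

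Crybb3, another structural beta crystallin, did not reach 0 in any library. In the Atf6+/+ OIR libraries it was 7.50, 23.0, 5.66, 8.88 and 67.8 FPKM, and in the Atf6-/- OIR libraries 3.30, 5.12, 5.84, 3.65 and 3.17 FPKM. The PBS libraries had 239.6, 108.9, 1.14, 82.3 and 2.53 FPKM and the Ceapin-A7 libraries 357.2, 7.26, 44.3, 8.14 and 211.8 FPKM. In all 5 Atf6-/- OIR libraries Crybb3 was the second most abundant of the 10 genes after Cryab, although Cryaa, Cryba1 and Crybb2 were each at 0.23 FPKM or below there. Its low-lens level was 3.17 to 8.88 FPKM in the 8 OIR libraries at P17 and 1.14 and 2.53 FPKM in the 2 PBS libraries at P30. These values include the lens RNA left there, with Cryaa at up to 5.88 FPKM in the 8 and 11.3 FPKM in the 2 libraries. Ages and treatments differ between these sets, and the difference was not tested.

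Of the remaining genes, 4 kept a small level with next to no gamma crystallin: 3 structural beta crystallins and Bfsp1. Crybb1 was 0.97, 0.95, 0.59, 1.37 and 0.88 FPKM in the Atf6-/- OIR libraries, and Cryba4, its neighbour on chromosome 5, was 0.63, 0.54, 0.32, 0.41 and 0.46 FPKM. Cryba2 was 0.42, 0.25, 0.36, 0.36 and 0.33 FPKM and Bfsp1 was 0.34, 0.38, 0.39, 0.33 and 0.25 FPKM in the same libraries. These levels are low and tight, and none of the 4 genes was listed at 0 in any of the 20 libraries. In the Atf6+/+ OIR libraries Bfsp1 was 0.51, 1.66, 0.69, 0.45 and 4.04 FPKM, all above the highest Atf6-/- value. Cryba2, Cryba4 and Crybb1 reached 28.7, 34.3 and 49.5 FPKM in Atf6+/+ OIR replicate 5 and 549.8, 321.5 and 267.6 FPKM in Ceapin-A7 replicate 1.

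To set a level of its own against carry-over, the proportion of each gene to Cryaa in the OIR library richest in lens RNA (Atf6+/+ replicate 5) was multiplied by the Cryaa level of each other library. In the Atf6-/- OIR libraries this scaled level was at most 0.186 FPKM for Cryab against measured levels of 65.7 to 84.9 FPKM, and at most 0.12 FPKM for Crybb3 against 3.17 to 5.84 FPKM. The measured level exceeded the scaled one in 5 of 5 Atf6-/- libraries for Cryab, Cryba2, Cryba4, Crybb1, Crybb3 and Bfsp1. For Cryba1 it did so in 2 of 5, for Crybb2 in 3 of 5 and for Mip in 1 of 5, with differences of at most 0.152 FPKM. With Cryaa at 0 to 0.23 FPKM there, scaled levels were near 0, so nearly any gene with some level would exceed them. In the Atf6+/+ libraries, replicate 5 being the reference, the count was 4 of 5 for Cryab, Crybb3 and Bfsp1. It was 3 of 5 for Cryba2, Cryba4 and Mip, 2 of 5 for Crybb1 and 0 of 5 for Cryba1 and Crybb2. At P30, with Ceapin-A7 replicate 1 as the richest library, PBS replicate 3 had 64.2 FPKM of Cryab against 1.26 scaled, 1.14 of Crybb3 against 0.263, 0.75 of Crybb1 against 0.197, 0.61 of Cryba4 against 0.236 and 0.29 of Bfsp1 against 0.0102. In that library Cryba2 lay below its scaled level (0.18 against 0.404 FPKM), as it did in PBS replicate 5 (0.93 against 1.56 FPKM). Its level above carry-over was thus seen at P17 and not in PBS replicate 3 or 5. In PBS replicate 5 Cryab was 58.8 FPKM against 4.89 scaled, Crybb3 2.53 against 1.02 and Bfsp1 0.30 against 0.0396. For Crybb1 the values were 1.18 against 0.761 and for Cryba4 1.17 against 0.914. The proportions of Crybb1 and Cryba4 to Cryaa there were 10.44% and 10.35%. They lay between those of Ceapin-A7 replicate 1 (6.73% and 8.09%) and PBS replicate 2 (13.85% and 15.16%), so their P30 excess depends on the reference library. The scaling takes the lens mix as fixed, which at P30 it was not.

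**Figure D2:**
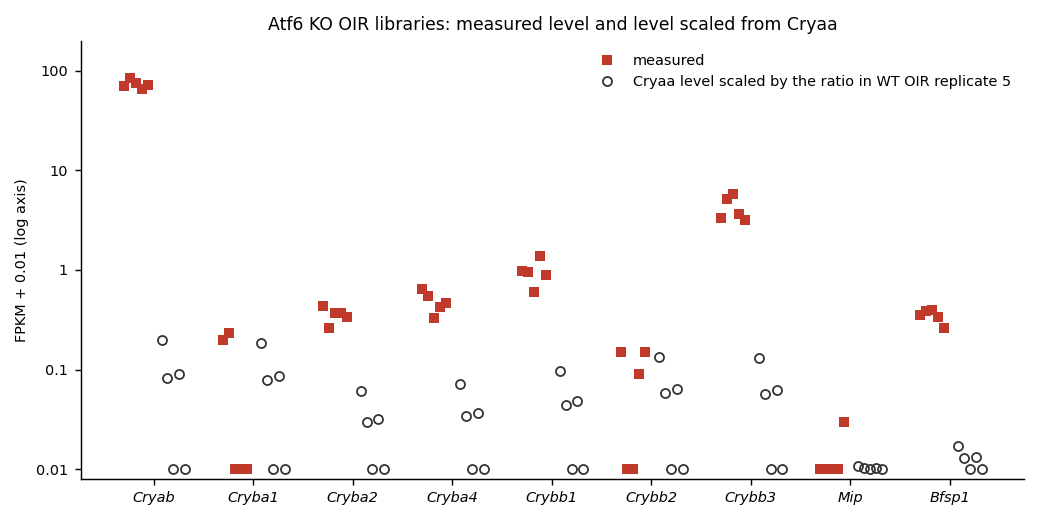
Measured FPKM (squares) and FPKM expected from Cryaa with the proportions of WT OIR replicate 5 (circles), both plus 0.01 on a log axis, in the 5 Atf6-/- OIR libraries. Squares lie far above the circles for Cryab and Crybb3, above them for Cryba2, Cryba4, Crybb1 and Bfsp1, and in the same range for Cryba1 and Crybb2.

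The lens RNA did not have the same composition in every library, and Mip differed most. It was 0.09, 0.26, 0, 0.04 and 0.43 FPKM in the Atf6+/+ OIR libraries and 0, 0, 0, 0 and 0.02 FPKM in the Atf6-/- OIR libraries. In the PBS libraries it was 52.1, 2.10, 0, 1.60 and 0.14 FPKM and in the Ceapin-A7 libraries 103.9, 0.63, 1.29, 0.25 and 31.3 FPKM. Thus PBS replicate 1 and Ceapin-A7 replicates 1 and 5 stood far above the other 7 P30 libraries. PBS replicates 2 and 4 had gamma crystallin sums of 1239 and 1183 FPKM, above the 917.0 FPKM of Ceapin-A7 replicate 5, yet 2.10 and 1.60 FPKM of Mip against 31.3 FPKM. Relative to Cryaa, Mip was 2.15%, 2.61% and 1.57% in the 3 Mip-rich libraries and 0.326%, 0.225% and 0.495% in PBS replicates 2 and 4 and Ceapin-A7 replicate 3. In the 4 P30 libraries with less lens RNA it was 0% to 2.17%, at Mip levels of at most 0.63 FPKM.

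The same 3 libraries held other lens genes that were at or near 0 in the other 7 P30 libraries. Gja3, a gap junction protein of fibre cells, was 8.42, 6.76 and 4.37 FPKM in PBS replicate 1 and Ceapin-A7 replicates 1 and 5, and at most 0.36 FPKM in the other 7 P30 libraries. Foxe3, the transcription factor of the lens epithelium, was 22.2, 4.70 and 5.75 FPKM in those 3 and 0 in the other 7. Pitx3, a further lens factor, was 2.21, 1.41 and 0.99 FPKM against at most 0.08 FPKM. The Crygb level was 10.6%, 10.2% and 6.89% of Cryaa in the 3 libraries and 23.8% to 72.1% in the other 7. Bfsp1 did not separate them: it was 7.94 FPKM in PBS replicate 1 and 7.86 FPKM in PBS replicate 2. Foxe3, Pitx3 and Gja3 were chosen from fixed lists but compared between these libraries after their values were seen, so this is a description.

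**Figure D3:**
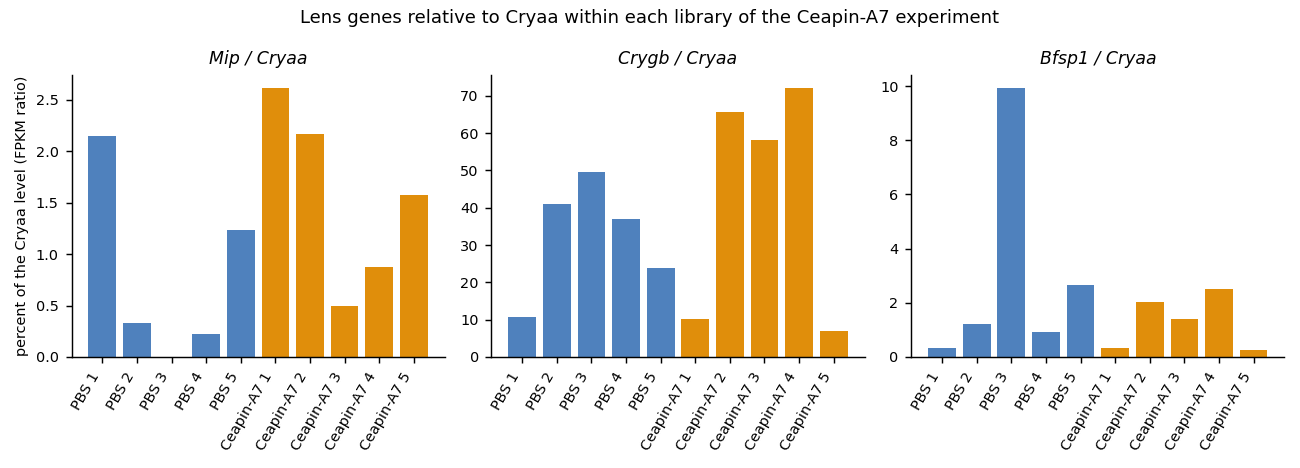
Mip, Crygb and Bfsp1 as a percent of Cryaa (ratio of FPKM) in each of the 10 libraries of the Ceapin-A7 experiment. Crygb was lowest against Cryaa in PBS 1 and Ceapin-A7 1 and 5, where Mip was 2.15%, 2.61% and 1.57% of it. Mip was also 2.17% in Ceapin-A7 2, at a Mip level of 0.63 FPKM, and the tall Bfsp1 bar of PBS 3 rests on a Cryaa level of 2.92 FPKM.

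Each gene was set against a lens index, the mean log2(FPKM + 0.1) of the other lens genes that passed the filter (13 of 18 in the OIR and 17 of 18 in the Ceapin-A7 experiment). In all 19 relations were computed over 10 libraries each, with permutation p-values adjusted over the 19. In the OIR experiment Pearson's r was 0.94 to 0.99 for 8 of the 9 genes tested (Spearman's rho 0.61 to 0.95, adjusted permutation p of r 6.3e-05 to 0.00109 and of rho 0.00019 to 0.0733). For Cryab it was 0.61 (rho 0.50, adjusted permutation p 0.0615 and 0.145), and 0.10 without Atf6+/+ replicate 5 alone. Of all 15704 genes tested, 0.267% reached r of at least 0.8, against 8 of 9 here. Without Atf6+/+ replicates 2 and 5, the 2 libraries farthest from the median index, r stayed above 0.8 for Cryaa (0.93), Cryba1 (0.91), Crybb2 (0.82) and Crybb3 (0.90) and fell to 0.80 for Crybb1, 0.78 for Cryba4, 0.68 for Cryba2, 0.56 for Bfsp1 and 0.52 for Cryab. Below 0.8, the relation of Crybb1, Cryba4, Cryba2, Bfsp1 and Cryab thus rests in part on those libraries. With the group means removed r was 0.59 for Cryab and 0.91 to 0.98 for the other 8.

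In the Ceapin-A7 experiment all 10 genes followed the index. Pearson's r was 0.98 to 1.00 for 8 genes, 0.91 for Cryab and 0.90 for Mip, with rho of 0.94 to 1.00 and adjusted permutation p of at most 0.000727 for r and 0.000432 for rho. Of all 15408 genes tested, 0.337% reached r of at least 0.8. The smallest unadjusted value, 1e-05, is the smallest that 100000 permutations can give. Leaving out PBS replicates 3 and 5 kept r at 0.86 for Mip, 0.94 for Cryab and 0.98 to 0.99 for the rest, and with group means removed it was 0.89 for Mip, 0.92 for Cryab and 0.99 to 1.00 for the others. The slope of log2 level on index was 0.80 for Cryab, 0.89 for Bfsp1, 1.40 for Mip and 1.31 to 1.75 for the other crystallins.

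**Figure D4:**
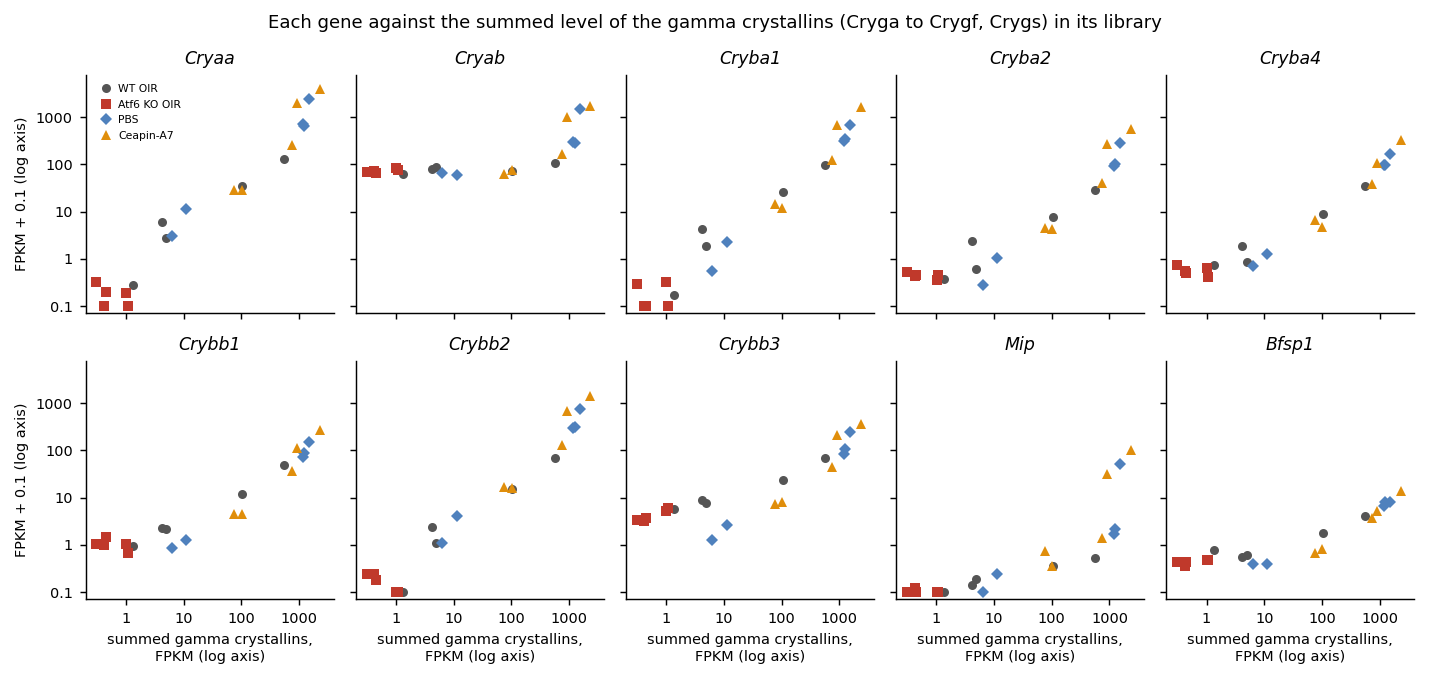
FPKM plus 0.1 of each of the 10 genes against the summed FPKM of 7 gamma crystallins, both on log axes, 1 point per library (20 libraries). Cryaa, Cryba1 and Crybb2 run along a line to the bottom of the plot, Cryab, Crybb3, Crybb1, Cryba4 and Bfsp1 level off at the left, and Mip splits into high and low points at the right.

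The genes most like 3 of the members were sought among 12559 genes with a mean of at least 1 FPKM in both experiments, by the lower of the within-experiment r values over 10 libraries each. For Cryaa they were Crygs (0.97), Crygb (0.95) and Crygd (0.94), and for Crybb2 they were Crygb (0.97), Crygd (0.96) and Crygs (0.96). All are lens gamma crystallins. For Cryab the closest were Dclre1b (0.64), Crygb (0.64) and Anxa1 (0.64), so no gene shared its pattern as closely as the gamma crystallins shared that of Cryaa. These are descriptions over libraries that share their lens content.

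Between genotypes, all 9 genes tested had lower fitted levels in the Atf6-/- OIR libraries, and none passed the test. Of the 10 genes, 9 passed the filter of a mean above 0.1 FPKM over both groups (Mip, at 0.164 ± 0.179 and 0.004 ± 0.00894 FPKM, did not). Cryaa, Cryba1 and Crybb2 had Atf6-/- means of 0.084, 0.082 and 0.072 FPKM and passed only through the Atf6+/+ group. The direction of their difference was thus largely set by the filter. Cryaa was 34.6 ± 55.0 FPKM in Atf6+/+ and 0.084 ± 0.0945 FPKM in Atf6-/- OIR retinas (SD, n = 5), a log2 fold change of -5.46 ± 1.27 (SE, adjusted p = 0.358 by limma). Crybb2 was 17.6 ± 29.9 and 0.072 ± 0.0701 FPKM (log2 fold change -4.26 ± 1.34, adjusted p = 0.358). The SD exceeded the mean in the Atf6+/+ group for 8 of these 9 genes, since 1 or 2 libraries held most of the signal. For Crybb3 the means were 22.6 ± 26.2 and 4.22 ± 1.19 FPKM (-1.76 ± 0.56, adjusted p = 0.358).

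Over the 9 genes the log2 fold change was -5.46 to -0.12 with a median of -2.52, beside 0.00283 over all genes tested, and 0 of 9 had an adjusted p under 0.05, as did 0.0318% of the 15704 genes. Before adjustment 8 of 9 were lower with p of 0.05 or less, which 12.7% of all genes reached in either direction. Among the 8 were Cryaa, Cryba1 and Crybb2, which passed the filter only through the Atf6+/+ group, so nothing is drawn from this count. With array weights in limma 6 members were called, as were 2769 of all genes. Without Atf6+/+ replicate 3, Cryaa alone was called (limma, adjusted p = 0.0451). The exception was Cryab (81.9 ± 16.2 and 73.4 ± 7.22 FPKM, -0.12 ± 0.13, adjusted p = 0.644, exact permutation p = 0.429, n = 5). Only Bfsp1 had groups that did not overlap (1.47 ± 1.52 and 0.338 ± 0.0554 FPKM), with an exact two-sided permutation p of 0.00794, the smallest that 5 against 5 libraries allow, and an adjusted limma p of 0.361. Lower values without overlap were found for 0.694% of all genes. In whole tissue, fewer cells of a type and less RNA per cell cannot be told apart.

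The lens content differed along with genotype in these libraries. The lens index was -1.31 to 4.22 in Atf6+/+ and -1.76 to -1.44 in Atf6-/- OIR libraries. Of the 13 other lens genes tested 8 were lower with p of 0.05 or less before adjustment, with a median log2 fold change of -2.50 over the 13 (0 of 13 with an adjusted p under 0.05). Among the 8, Crygb, Crygc, Crygd, Cryge and Crygs had Atf6-/- means below 0.1 FPKM and passed the filter only through the Atf6+/+ group. Beside these, 6 of 12 pigment epithelium, 3 of 11 rod and 2 of 10 Müller glia genes were higher and 1 of 3 corneal genes lower with p of 0.05 or less before adjustment, none with an adjusted p under 0.05, and their part was not tested. With the index as a term in the fit, the median log2 fold change of the 9 genes was -0.11 instead of -2.52. Crybb1 was then 0.22 ± 0.25, Cryba2 0.06 ± 0.44, Cryba4 -0.02 ± 0.29, Crybb3 -0.18 ± 0.18 and Bfsp1 -0.11 ± 0.24. Cryaa kept -2.07 ± 0.72 (adjusted p = 0.456) and Cryba1 -1.50 ± 0.77 (adjusted p = 0.598). Without Atf6+/+ replicates 2 and 5 together, a choice made after seeing the data, the 9 genes had log2 fold changes of -3.32 to -0.04 (median -0.87, adjusted p 0.375 to 0.926). In these 10 libraries carry-over and genotype cannot be told apart for the genes that follow the index.

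**Figure D5:**
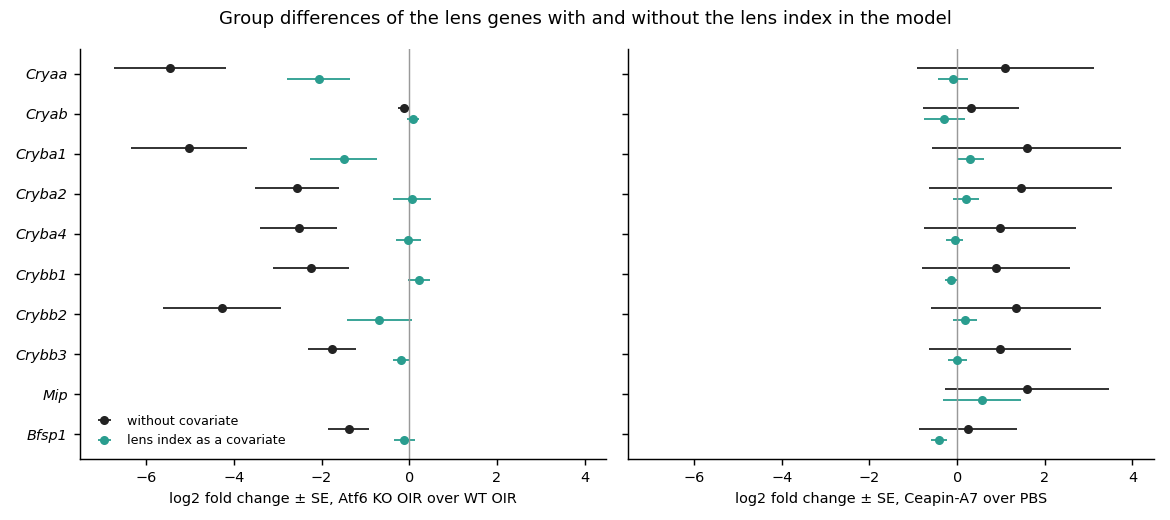
Log2 fold change ± SE of each gene for Atf6 KO over WT OIR (left, 9 genes) and Ceapin-A7 over PBS (right, 10 genes), without a covariate (black) and with the lens index in the fit (green), from limma on 10 libraries each. On the left the black points of 8 genes lie at -5.46 to -1.38, and of the green points those of Cryaa and Cryba1 are farthest from 0, at -2.07 and -1.50. On the right all 10 black bars cross 0.

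At P30 the members did not separate the treatments. All 10 passed the filter, and 0 of 10 had an adjusted p under 0.05, nor did any of the 15408 genes tested (0%). Before adjustment p was 0.05 or less for 0 of 10 members and for 10.4% of all genes, and no member's groups were free of overlap (0.688% of all genes were lower in Ceapin-A7 without overlap). Cryaa was 758.3 ± 989.0 FPKM in PBS and 1257 ± 1727 FPKM in Ceapin-A7 retinas (SD, n = 5, log2 fold change 1.10 ± 2.01, adjusted p = 0.851). Cryab was 434.9 ± 584.3 and 610.7 ± 738.2 FPKM (0.31 ± 1.09, adjusted p = 0.931), and Mip 11.2 ± 22.9 and 27.5 ± 44.7 FPKM (1.59 ± 1.88, adjusted p = 0.756). The other 7 had log2 fold changes of 0.25 to 1.58, and exact permutation p over the 10 genes was 0.508 to 0.865 (n = 5 per group). The standard errors were 1.09 to 2.15 log2 units, in each of the 10 genes larger than the fold change itself.

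Without PBS replicate 3, which has the least lens RNA at P30, 7 of the 10 log2 fold changes were below 0 and their median was -0.10 instead of 1.04. With the lens index as a term the standard errors fell to between 0.14 and 0.89 and the fold changes ran from -0.41 (Bfsp1, ± 0.17, adjusted p = 0.496) to 0.58 (Mip, ± 0.89), with 0 of 10 called. Of the marker lists, 1 of 11 rod genes was higher, 2 of 10 Müller glia genes were higher and 1 lower, 3 of 12 pigment epithelium genes were higher and 3 lower, and 0 of 4 corneal genes differed with p of 0.05 or less before adjustment. None had an adjusted p under 0.05.

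Related families were examined in the same way. Among the 18 other lens genes, r with the index reached 0.8 in 10 of 13 tested in the OIR and 15 of 17 in the Ceapin-A7 experiment, the index being made of them. Hsf4, the heat shock factor of lens, was at 1.95 to 4.12 FPKM and Lenep, a lens epithelial protein, at 6.38 to 34.6 FPKM in all 20 libraries, so that they had a level in every retina as Cryab did. In the Atf6-/- OIR libraries Bfsp2 was at 0.52 to 1.81, Lgsn at 0.35 to 0.56 and Cryga at 0.21 to 1.08 FPKM. A low level in those libraries was thus not particular to the members. Bfsp2 and Lgsn had r of 0.59 and 0.61 with the index in the OIR experiment. Of 7 crystallin relatives and enzyme crystallins, 6 were tested, with 0 of 6 at r of 0.8 in the OIR and 1 of 6 (Crygn, 0.91) in the Ceapin-A7 experiment. The most abundant of them was Crym, a thyroid hormone binding protein, at 62.0 to 162.4 FPKM. Of the lens transcription factors tested 0 of 5 and 0 of 8 reached r of 0.8. Pax6 was at 87.7 to 105.9 and Prox1 at 23.1 to 32.8 FPKM, and both also act in retinal neurons.

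Cryab belongs to the small heat shock proteins. None of the other small heat shock genes reached r of 0.8 with the index (0 of 6 tested in either experiment) or an adjusted p under 0.05. Hspb6 was at 67.5 to 129.8 FPKM and Hspb1 at 4.96 to 13.5 FPKM. Hspb2, which lies head to head with Cryab and overlaps one of its transcripts on the other strand in GENCODE vM21, was 8.90 FPKM in PBS replicate 1, 5.95, 5.40 and 5.2 FPKM in Ceapin-A7 replicates 1, 3 and 5 and 0.99 to 3.45 FPKM in the other 16 libraries. Of 8 heat shock response genes, 2 were lower in Atf6-/- OIR and 1 in Ceapin-A7 retinas with p of 0.05 or less before adjustment, and none had an adjusted p under 0.05. Reactive glia genes were lower in 7 of 7 by sign in both experiments (median log2 fold change -0.55 and -0.87), 2 and 4 of them with p of 0.05 or less before adjustment and none after it. Their part in the Cryab level was not tested.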

How the data were processed

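The authors sequenced stranded mRNA libraries of whole retinas as paired-end reads of 100 bases, aligned them to GRCm39 with HISAT2 2.0.4, estimated expression with RSEM 1.2.18 and used DESeq2 1.4.5 for their own tests. They deposited FPKM per gene to 2 decimals, in 1 table per group. The counting strand setting is not given in the sources used here. FPKM are not counts, so no count model was fitted. The study's methods state 1 nominal number of reads for all samples, and FPKM do not give the reads of each library. A relative depth was estimated per library from the spacing of values between 0.05 and 1 FPKM, against control replicate 2 of its experiment. Rounding to 2 decimals draws this estimate to 1, so it can miss moderate differences in depth.

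Groups and replicate numbers came from the labels. Nothing there says that each library is a separate animal, so p-values measure the spread between these samples. Libraries were scaled by factors from medians of ratios. Values of log2(FPKM + 0.1) were compared for genes with a mean above 0.1 FPKM with limma 3.58.1 (eBayes with trend, R 4.3.3), per experiment, with Benjamini-Hochberg adjustment over all genes. Fold changes refer to this scale, which shrinks those of low genes. Single genes were also compared by exact two-sided permutation over 252 arrangements. Both steps were tested on simulated data. Correlations used 100000 permutations.

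The members and lists (other lens genes, crystallin relatives, lens transcription factors, small heat shock and heat shock response genes, and rod, Müller glia, reactive glia, pigment epithelium and corneal markers) were chosen with earlier results of these data known. All 10 members are named, with values from other lists for up to 4 abundant genes each, and likeness for Cryaa, Cryab and Crybb2. Gja3, Foxe3, Pitx3, Crygn, Bfsp2, Lgsn, Atf6, Aldh3a1 and Hspb2 were named after their values were seen. Promoters came from a RefSeq table. Alternatives covered the pseudocount, filter, scaling, weights, all 20 libraries in one fit, a replicate block, the lens index as a covariate and leaving out libraries.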

Additional observations from a re-analysis of the deposited data

Results flagged for a closer look

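Within a group of 5 libraries, a value was taken as far from the rest when its gap to the nearest other library exceeded 0.71 of the group's range (Dixon's 95% limit for 5). Of 40 sets of a gene and a group, 10 met this on FPKM and 1 on the log2 scale. Chance alone gives about 1 set in 20, and the sets are not independent, since lens genes move together in a library.

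In Atf6+/+ OIR replicate 5, 7 of the 10 genes stood apart on FPKM: Cryaa at 129.86, Cryba1 at 97.92, Cryba2 at 28.74, Cryba4 at 34.34, Crybb1 at 49.52, Crybb2 at 69.99 and Crybb3 at 67.78 FPKM. The summed gamma crystallins of that library, 558.5 FPKM, were also the highest of its group, and its corneal genes summed to 0.59 FPKM. Without it the 9 genes tested had log2 fold changes of -4.42 to -0.02 and adjusted limma p of 0.348 to 0.945.

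In PBS replicate 1, Cryab was at 1458.8 FPKM and Mip at 52.13 FPKM, against 301.6 and 2.10 FPKM in the next library of the group. Aldh3a1, a corneal gene, was at 12.9 FPKM in that library. Its part in these values was not tested. In Atf6-/- OIR replicate 5, Mip was at 0.02 FPKM with the other 4 libraries listed at 0, which is near the smallest value the 2 decimals can show and is the 1 set that also met the limit on the log2 scale.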

How the results depend on the processing

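The count of members called was 0 in both experiments under each alternative except in the OIR experiment with array weights, where 6 of 9 members and 6 other lens genes were called along with 2769 genes in all (5 without weights), and without Atf6+/+ replicate 3, where Cryaa was called (range without 1 library 0 to 1 member). The cause was not tested. Over all genes the OIR count was 11 with 20 libraries in one fit, 9 with the lens index as a covariate and 5 to 9 without 1 library, and the Ceapin-A7 count was 1 instead of 0 with 20 libraries.

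The 9 OIR log2 fold changes stayed below 0 without any 1 library and under every scaling. For Cryaa, Cryba1 and Crybb2, which passed the filter only through the Atf6+/+ group, this direction was largely set by the filter. With the lens index as a covariate Cryab was 0.0836, Cryba2 0.0602 and Crybb1 0.216. In the Ceapin-A7 experiment, where none was called, that covariate gave -0.10 for Cryaa, -0.29 for Cryab, -0.0558 for Cryba4, -0.13 for Crybb1 and -0.41 for Bfsp1, and leaving out PBS replicates 4 and 5, which had the lowest rod sums (added after seeing the data), gave -0.17 for Cryab and -0.10 for Bfsp1. Leaving out 1 library gave -0.25 to 2.16 for Cryaa, -0.36 to 1.00 for Cryab, -0.15 to 1.81 for Cryba4, -0.17 to 1.69 for Crybb1, -0.0283 to 2.33 for Crybb2, -0.0840 to 1.81 for Crybb3 and -0.39 to 0.75 for Bfsp1.

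With another index, another scale, group means removed or 1 library left out, 8 of 9 OIR and at least 9 of 10 Ceapin-A7 members reached r of 0.8 with the index, the exception at P30 being Mip (0.799) with gamma crystallins only. Without Atf6+/+ replicates 2 and 5 together, 4 of 9 OIR members did. Cryab in OIR was 0.10 without Atf6+/+ replicate 5 alone, 0.52 without replicates 2 and 5 together and 0.59 to 0.79 otherwise. An index without Lenep and Hsf4 was added after seeing the data.

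Libraries with the same replicate number deviated together with correlations of -0.26 to 0.21 (OIR) and -0.22 to 0.31 (Ceapin-A7), and 0 of 5 and 1 of 5 numbers correlated best with themselves, so the numbers were not taken to pair the samples. With the replicate block 0 members and 0 other lens genes were called in both experiments, with member adjusted limma p of 0.387 to 0.633 and 0.660 to 0.949. Depth limits Mip, Cryba1 and Crybb2 near 0, where FPKM carry 2 decimals.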
